A study of Mus musculus with 108 samples.

Results

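The genes described here are 37 genes of DNA replication and deoxynucleotide synthesis, taken by gene symbol from a count table of 49585 genes in 108 RNA-seq libraries of mouse myeloid cells. They cover origin licensing (Orc1, Orc6, Cdc6, Cdt1), the replicative helicase and its loading partners (Mcm2, Mcm3, Mcm4, Mcm5, Mcm6, Mcm7, Mcm10, Cdc45, Gins1, Gins2, Gins3, Gins4), the primases and polymerases (Prim1, Prim2, Pola1, Pola2, Pold1, Pole), the clamp, its loader and lagging-strand enzymes (Pcna, Rfc3, Rfc4, Rfc5, Rpa2, Fen1, Lig1), deoxynucleotide supply (Rrm1, Rrm2, Tyms, Tk1, Dut) and chromatin assembly behind the fork (Uhrf1, Chaf1a, Chaf1b). All 37 symbols were found, each with 1 gene ID.

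A cell that divides must copy its genome once. The origin recognition complex, Cdc6 and Cdt1 load the ring-shaped MCM helicase onto origins in G1, and Cdc45 and the GINS complex switch it on in S phase, when polymerases, the sliding clamp Pcna and ribonucleotide reductase are all needed together. Many of these genes are transcribed under E2F factors, which are released from the retinoblastoma protein when a cell commits to S phase, so that their transcripts are widely read as a sign of proliferation. Microglia, the resident macrophages of the brain, divide slowly in the healthy adult brain and can proliferate locally after injury or near a tumour, whereas mature neutrophils do not divide and monocytes leave the bone marrow largely after their last divisions.

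The study asked how myeloid cells of lung-to-brain metastases change as the tumour progresses and after whole-brain radiotherapy. All mice were athymic nude mice of 1 strain, labelled CAnN.Cg-Foxn1nu/Crl on a Balb/C background, which lack a normal thymus and most mature T cells. Neither sex nor age nor the injected tumour cells are stated in the labels. From brains with a metastasis graded large or small, cells sorted by flow cytometry as bone marrow-derived macrophages (BMDM; 5 libraries large, 5 small), microglia (5 and 5), granulocytes (5 and 4) and inflammatory monocytes (5 and 4) were sequenced without irradiation. Each of the 4 populations was also taken from brains with a metastasis of ungraded size after 1 dose of 10 Gy at day 3 (3 libraries) or after 5 doses of 2 Gy at day 3 (4), day 5 (4) and day 10 (3). Which event marks the start of the day count is not given in the labels. Mice without a tumour gave microglia (4 libraries) and blood monocytes (4). A further 3 and 3 libraries of tumour-free microglia have titles with 5x2 and day 3 or day 5 but a radiotherapy field of none, and they are called titled 5x2 below. The labels give each library as a sample of its own without saying that it came from its own animal, and the p-values then reflect only how far these samples differ from one another, which may be technical.

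The promoters of 31 of the 37 genes were found in RefSeq (build GRCm38.p6) as windows of 250 bases before to 50 bases after the gene's start. They were searched on both strands for an E2F site, TTTNNCGC with both N being C or G, and for the CHR element TTTGAA of genes expressed late in the cell cycle. No promoter is shown for Gins1, Gins2, Gins4, Prim2, Mcm4 and Pole. The E2F site was found in 13 of the 31 genes, Mcm3, Mcm5, Mcm6, Mcm7, Gins3, Cdt1, Cdc6, Orc1, Pola1, Pold1, Rfc3, Lig1 and Uhrf1. It lay in 13 of their 36 windows, or 36.1%, and in 2.27% of all 32851 promoter windows of the same length. The CHR element was found in Mcm2, Gins3, Cdc45 and Fen1, or 11.1% of the windows, against 17.9% of all windows. The promoters of 3 genes that recur in the results are printed on the strand of the gene, with E2F matches in capitals. Mcm6 and Mcm5 encode subunits of the helicase ring, and Rrm2 encodes the small subunit of ribonucleotide reductase, whose window held no match. Matches on both strands that overlap form one longer run of capitals.
Mcm6 promoter, chr1:128359656-128359955, minus strand: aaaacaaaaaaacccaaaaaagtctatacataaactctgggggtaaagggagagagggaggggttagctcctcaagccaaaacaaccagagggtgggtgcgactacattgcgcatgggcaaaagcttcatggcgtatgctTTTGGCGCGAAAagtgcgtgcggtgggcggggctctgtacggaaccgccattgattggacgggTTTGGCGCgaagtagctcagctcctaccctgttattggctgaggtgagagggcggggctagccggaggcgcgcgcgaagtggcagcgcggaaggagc
Mcm5 promoter, chr8:75109259-75109558, plus strand: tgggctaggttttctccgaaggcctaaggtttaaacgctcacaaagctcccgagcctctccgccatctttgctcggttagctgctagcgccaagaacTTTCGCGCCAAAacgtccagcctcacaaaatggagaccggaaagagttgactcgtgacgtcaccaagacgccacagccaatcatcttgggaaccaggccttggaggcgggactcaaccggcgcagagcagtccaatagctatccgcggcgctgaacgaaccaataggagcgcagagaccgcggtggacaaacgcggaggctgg
Rrm2 promoter, chr12:24708004-24708303, plus strand: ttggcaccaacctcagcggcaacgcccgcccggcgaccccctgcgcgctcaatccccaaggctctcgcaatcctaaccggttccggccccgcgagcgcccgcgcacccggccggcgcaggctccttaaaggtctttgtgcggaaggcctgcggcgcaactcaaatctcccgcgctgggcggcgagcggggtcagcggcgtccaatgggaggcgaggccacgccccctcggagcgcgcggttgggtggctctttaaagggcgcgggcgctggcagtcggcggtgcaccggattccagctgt
The Mcm6 window held 3 matches and the Mcm5 window 2. A match describes the letters of the window and does not show that a factor binds there.

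Total counts ran between 985423 and 18642747 per library, with a median of 11362593. Levels are given as CPM, counts per 1000000 of the library's total multiplied by its TMM scaling factor. In the labelled populations, 8 microglia markers summed to 6453 to 21000 CPM in unirradiated microglia, against 1524 to 7907 in BMDM. A set of 7 granulocyte markers summed to 14410 to 42350 CPM in granulocytes, against at most 1217 CPM in monocytes. Epithelial markers, which the carcinoma cells could carry, summed to 34.4 to 98.1 CPM in BMDM and to at most 13.3 CPM in unirradiated microglia, apart from the libraries titled 5x2. Doubt attaches to 12 libraries because they held fewer than 3000000 counts, more than 30000 detected genes, or had over 1% of their population's abundant genes at 0. Among them are tumour-free microglia libraries 2 and 3, blood monocyte libraries 1, 2 and 3, and small-stage granulocyte library 1. Small-stage microglia libraries 1 and 4 and large-stage BMDM library 2 are also among them. At day 3 of 5 doses of 2 Gy they include microglia library 1, monocyte library 3 and granulocyte library 3. In tumour-free microglia library 3, the shallowest of all, 22 of the 37 genes had at least 3 counts, and in small-stage granulocyte library 1 only 2 had. Each count of called genes among the 37 that changes without these libraries is also given without them, and the counts of 0 stayed at 0.

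The level of a transcript differed widely between the genes when counts were divided by exon length. In microglia from brains with a tumour, Pcna, the sliding clamp that holds polymerases on DNA, had the highest length-scaled level at 34.1 ± 11.4 CPM per kb (SD, n = 10). Gins4 came next at 18.9 ± 3.90 CPM per kb, followed by Mcm3 at 17.5 ± 7.56, Mcm5 at 15.1 ± 7.65 and Mcm4 at 12.4 ± 5.48 CPM per kb. The lowest were the flap endonuclease Fen1, at 0.375 ± 0.160 CPM per kb, and Pole, the catalytic subunit of the leading-strand polymerase, at 0.680 ± 0.375. Fen1 overlaps other genes on the opposite strand, and whether counting used the strand is unknown, so reads of the partner and its own cannot be told apart. The same holds for Gins2, Cdc45, Tk1, Mcm7, Orc6, Rfc4, Rfc5, Lig1 and Chaf1a, which overlap a named gene on the opposite strand in the annotation. Pcna was also the highest in BMDM (34.8 ± 7.78 CPM per kb, n = 10), granulocytes (29.1 ± 14.2, n = 9), tumour monocytes (34.3 ± 6.59, n = 9) and tumour-free microglia (21.7 ± 11, n = 4), and it stood second to Gins4 in blood monocytes, where Gins4 had 23.0 ± 10.3 CPM per kb (n = 4).

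**Figure D1:**
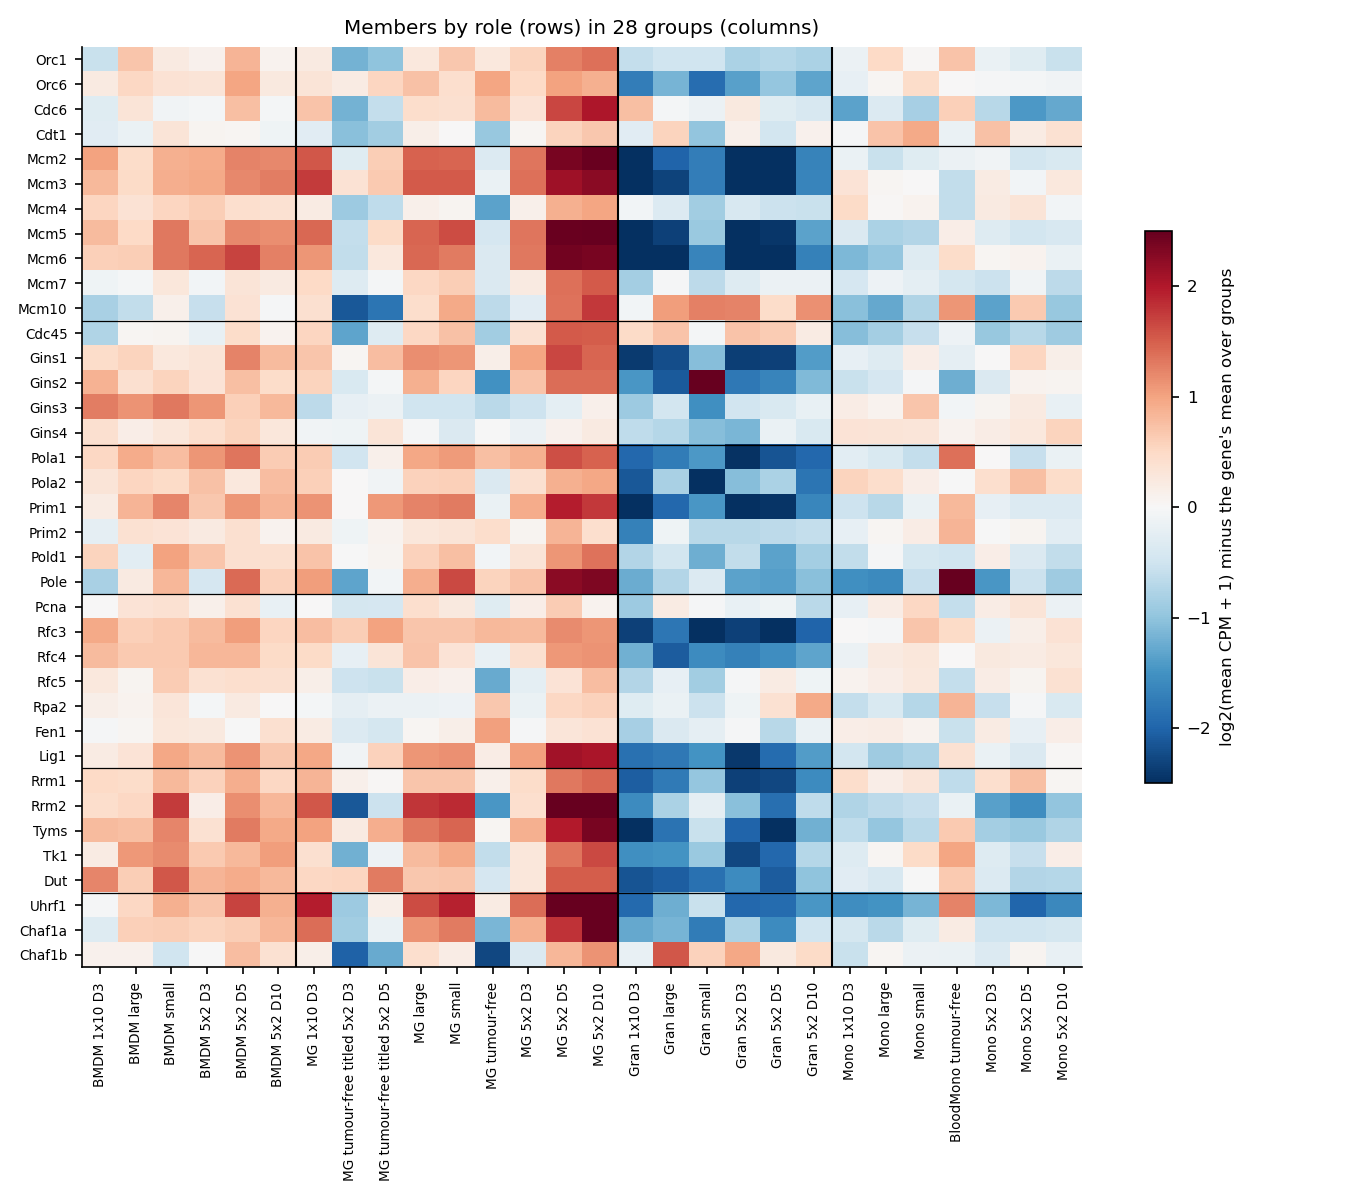
Levels of the 37 genes in the 28 groups, as log2 of the group's mean CPM plus 1 after subtracting the gene's mean over all groups (colour, log2 units). Rows are genes ordered by role and columns are groups ordered by population, and the microglia columns at day 10 and day 5 of 5 doses of 2 Gy have the highest mean over the 37 genes while granulocyte columns have the lowest.

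A summary of the 37 genes, the mean over them of log2(CPM + 1), was computed for each library, and it ran between 0.48 and 5.25. By group it was highest in microglia after 5 doses of 2 Gy, at 4.93 ± 0.25 at day 10 (SD, n = 3) and 4.72 ± 0.69 at day 5 (n = 4). BMDM at day 5 (4.14 ± 0.48), small-stage microglia (4.11 ± 0.55), large-stage microglia (4.07 ± 0.55) and small-stage BMDM (4.02 ± 0.23) followed. Blood monocytes lay at 3.53 ± 0.15, small-stage monocytes at 3.28 ± 0.05, large-stage monocytes at 3.06 ± 0.38 and tumour-free microglia at 2.92 ± 0.41. Both control groups depended on the scaling. With another scaling (RLE) blood monocytes lay at 4.13, above large-stage microglia at 4.04, and tumour-free microglia at 3.37. Granulocytes were lowest, at 2.43 ± 0.16 in large-stage and 2.02 ± 1.10 in small-stage brains and 1.91 ± 0.24 after 1 dose of 10 Gy. In this order of 28 groups, only 1 step between neighbours, monocytes at day 10 of 5 doses of 2 Gy over monocytes after 1 dose of 10 Gy, was larger than the larger SD of the pair.

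**Figure D2:**
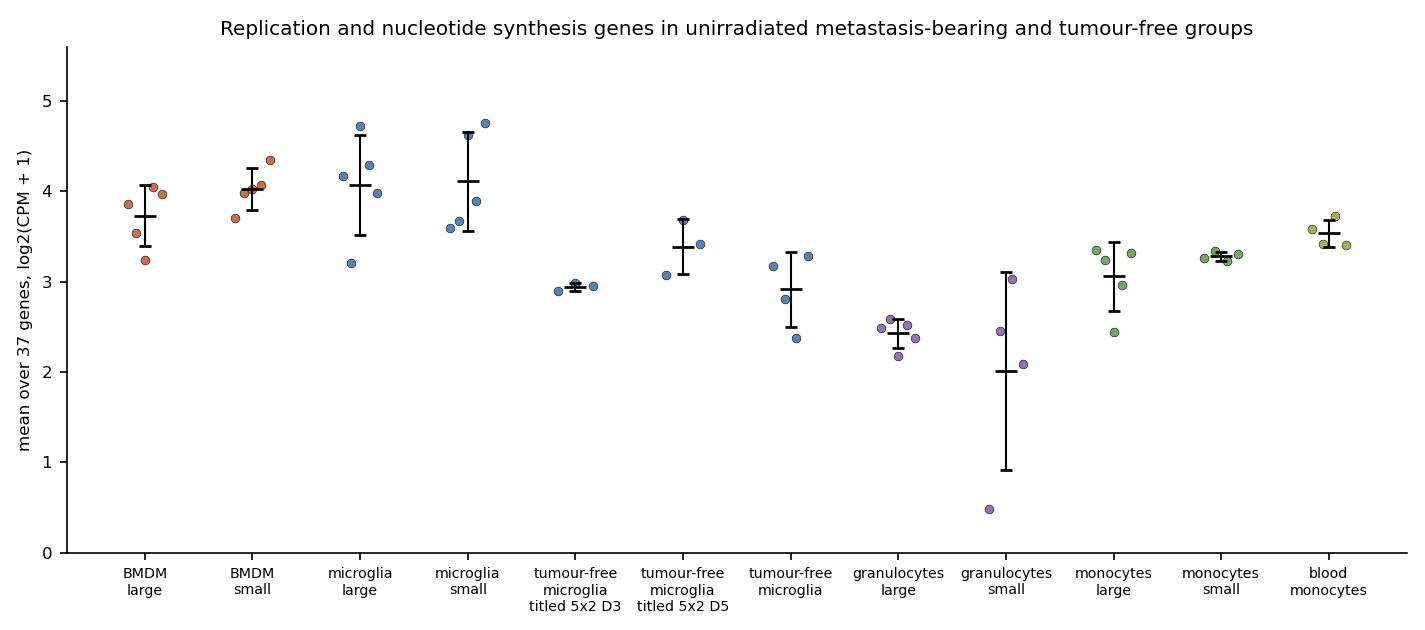
The mean over the 37 genes of log2(CPM + 1) in each library (points) of the unirradiated tumour groups and the tumour-free groups, with the group mean and SD (bar and whiskers). Tumour-free microglia titled 5x2 are included. The 10 tumour microglia libraries lie between 3.21 and 4.76 and the 4 tumour-free ones not titled 5x2 between 2.38 and 3.29. Those titled 5x2 lie between 2.90 and 2.99 at day 3 and between 3.07 and 3.68 at day 5. Small-stage granulocyte library 1 stands apart at 0.48.

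Within microglia the genes varied together from library to library. Over 34 microglia libraries, a gene's Pearson correlation with the mean of the other members had a median of 0.82, with 28 genes above 0.7, Mcm5 highest at 0.98, and Fen1 (0.21) and Gins4 (0.23) lowest. The median was 0.42 over 24 BMDM libraries, 0.41 over 23 monocyte libraries and 0.61 over 23 granulocyte libraries. The lowest genes there were Gins3 in BMDM at -0.38, Rpa2 in monocytes at -0.80 and Gins2 in granulocytes at -0.60. The mean of the 37 genes also moved with the mean of 22 mitosis genes, with r of 0.91 in microglia, 0.80 in BMDM, 0.83 in monocytes and 0.75 in granulocytes. These correlations describe libraries that share depth, scaling and group, and they carry no test.

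Microglia from brains with a metastasis were compared with microglia of tumour-free brains to see how the genes stood in the tumour setting. Chaf1b, Chaf1a, Rrm2 and Gins2 were several fold higher beside large and small tumours, and the helicase genes Mcm2, Mcm3, Mcm5 and Mcm6 were higher too, whereas Pcna, Rrm1, Gins3, Gins4 and the origin genes did not pass the test. Of the 37 genes, 13 were higher and 1 lower in large-stage microglia at an adjusted p of 0.05 (edgeR's quasi-likelihood test, Benjamini-Hochberg over all 19754 genes tested), where 31.9% of all genes tested were called, 11.7% higher and 20.2% lower. In small-stage microglia 13 were higher and 0 lower, where 15.4% of all genes were called, 7.55% higher and 7.82% lower. The median log2 fold change of the 37 genes was 0.95 in large-stage and 0.99 in small-stage microglia, against -0.26 and -0.03 over all genes. Large and small stages share the same 4 tumour-free libraries, so their values are given side by side and not as 2 separate results. In RNA from a sorted population, more dividing cells and more transcript in each cell cannot be told apart.

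The GINS complex joins the MCM ring and Cdc45 to form the active helicase. Its subunit Gins2 had 16.8, 5.56, 20.5, 13.7 and 10.7 CPM in large-stage microglia and 7.49, 5.19, 13.3, 8.21 and 17.1 CPM in small-stage microglia, against 2.37, 1.35, 0 and 3.19 CPM in tumour-free microglia. Each of these libraries from brains with a tumour was above each of these tumour-free ones. The tumour-free libraries titled 5x2, described below, overlapped the tumour range. The log2 fold change was 2.66 ± 0.49 (SE) in large-stage microglia (adjusted p = 0.000297) and 2.39 ± 0.49 in small-stage microglia (adjusted p = 0.00118). The partner that Gins2 overlaps is Gse1. Gins1 rose in large-stage microglia (0.95 ± 0.37, adjusted p = 0.0494) and had 0.99 ± 0.37 in small-stage microglia with an adjusted p of 0.0665. Gins3 and Gins4 had log2 fold changes of 0.07 and -0.19 in large-stage and 0.20 and -0.43 in small-stage microglia, none past the threshold.

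Chromatin assembly factor 1 deposits new nucleosomes behind the fork, with Chaf1a as its large and Chaf1b as its middle subunit. Chaf1b had 10.5, 5.48, 22.2, 10.5 and 8.32 CPM in large-stage microglia and 7.19, 2.90, 13.6, 6.54 and 17.9 CPM in small-stage microglia, against 1.25, 1.16, 0 and 1.28 CPM in tumour-free microglia. The groups did not overlap, and the log2 fold change was 3.26 ± 0.69 for large-stage (adjusted p = 0.00106) and 3.13 ± 0.69 for small-stage microglia (adjusted p = 0.00228). Chaf1a had 7.27, 0.590, 14.4, 7.47 and 5.44 CPM in large-stage microglia and 4.12, 6.29, 10.3, 5.83 and 13.8 CPM in small-stage microglia, against 0.872, 0.386, 0 and 1.37 CPM in tumour-free microglia. Only large-stage library 2 fell within the tumour-free range, and the log2 fold change was 3.03 ± 0.78 (adjusted p = 0.00484) for large-stage and 3.34 ± 0.78 (adjusted p = 0.00407) for small-stage microglia. Uhrf1, which recruits the maintenance methyltransferase to newly copied DNA, had 1.45 ± 0.79 and 1.88 ± 0.80 with adjusted p of 0.152 and 0.107.

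Ribonucleotide reductase makes deoxynucleotides, and its small subunit Rrm2 is the one whose supply is restricted to S phase. Rrm2 had 30.1, 1.94, 46.8, 23.8 and 21.2 CPM in large-stage microglia and 10.9, 10.5, 34.2, 21.6 and 53.6 CPM in small-stage microglia, against 2.24, 1.35, 0 and 3.28 CPM in tumour-free microglia. Again only large-stage library 2 lay among the tumour-free values. The log2 fold change was 3.50 ± 0.87 in large-stage (adjusted p = 0.00418) and 3.68 ± 0.88 in small-stage microglia (adjusted p = 0.00472). The large subunit Rrm1, which is present outside S phase too, had 60.0, 47.5, 88.3, 63.1 and 57.4 CPM in large-stage microglia and 37.3, 54.4, 80.5, 42.5 and 101 CPM in small-stage microglia, against 45.4, 15.2, 55.7 and 53.2 CPM in tumour-free microglia. Those groups overlapped, and with 0.45 ± 0.32 and 0.54 ± 0.32 Rrm1 was not called in either stage. Thymidylate synthase, Tyms, rose in small-stage microglia by 1.39 ± 0.46 (adjusted p = 0.0375) and had 1.13 ± 0.46 in large-stage microglia (adjusted p = 0.0574). The dUTPase Dut and thymidine kinase Tk1 had log2 fold changes between 1.04 and 1.51 with adjusted p between 0.0690 and 0.113.

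The MCM helicase unwinds the parental strands. Mcm5 had 47.5, 15.9, 100.3, 74.6 and 44.8 CPM in large-stage microglia and 33, 35.6, 95.0, 56.7 and 101 CPM in small-stage microglia, against 15.9, 6.66, 7.95 and 28.2 CPM in tumour-free microglia. All small-stage libraries and all large-stage libraries except library 2 lay above the tumour-free range. Mcm5 rose by 1.80 ± 0.55 in large-stage (adjusted p = 0.0148) and by 2.11 ± 0.56 in small-stage microglia (adjusted p = 0.0104). Mcm2, Mcm3 and Mcm6 rose in both stages too, by 1.60 to 1.75 in large-stage and by 1.70 to 1.84 in small-stage microglia. Mcm4 rose in large-stage microglia (1.39 ± 0.51, adjusted p = 0.0376) and had 1.44 ± 0.51 with an adjusted p of 0.0537 in small-stage microglia. Mcm7, whose locus overlaps other genes, had 0.77 ± 0.45 and 0.98 ± 0.45 and was not called.

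Among the priming and loading factors, Prim1, the catalytic primase subunit, rose by 1.38 ± 0.43 in large-stage (adjusted p = 0.0157) and 1.54 ± 0.43 in small-stage microglia (adjusted p = 0.0142). Pola2, the regulatory subunit of the primase-polymerase complex, and Rfc5, a subunit of the clamp loader, rose in both stages as well, while Prim2, Pola1, Rfc3 and Rfc4 had log2 fold changes between -0.32 and 0.81 and were not called. Pcna itself had 79.3, 70.9, 69.3, 90.2 and 127 CPM in large-stage microglia and 59.9, 56.8, 132, 56.4 and 76.6 CPM in small-stage microglia, against 44.9, 34.4, 38.0 and 91.1 CPM in tumour-free microglia. The fourth tumour-free library lay among the tumour libraries, and Pcna had 0.61 ± 0.30 (adjusted p = 0.107) and 0.54 ± 0.30 (adjusted p = 0.226). Cdc45 rose in small-stage microglia by 1.75 ± 0.60 (adjusted p = 0.0438) and had 1.40 ± 0.59 in large-stage microglia (adjusted p = 0.0673). Of the licensing genes Orc1, Orc6, Cdc6 and Cdt1 none passed in either stage. Rpa2, of the single-strand binding protein, was the only gene that fell, by 1.05 on the log2 scale in large-stage microglia (adjusted p = 0.027). It had 18.5, 15.8, 25.6, 27.2 and 19.1 CPM there, against 22.4, 19.1, 89.2 and 22.9 CPM in tumour-free microglia. Without tumour-free library 3 its log2 fold change was -0.14 and not called. Some rises were not called without that library either. These were Mcm4, Gins1 and Pola2 in large-stage and Mcm6, Cdc45, Tyms and Pola2 in small-stage microglia. Their log2 fold changes stayed positive, with edgeR's adjusted p between 0.058 and 0.114.

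**Figure D3:**
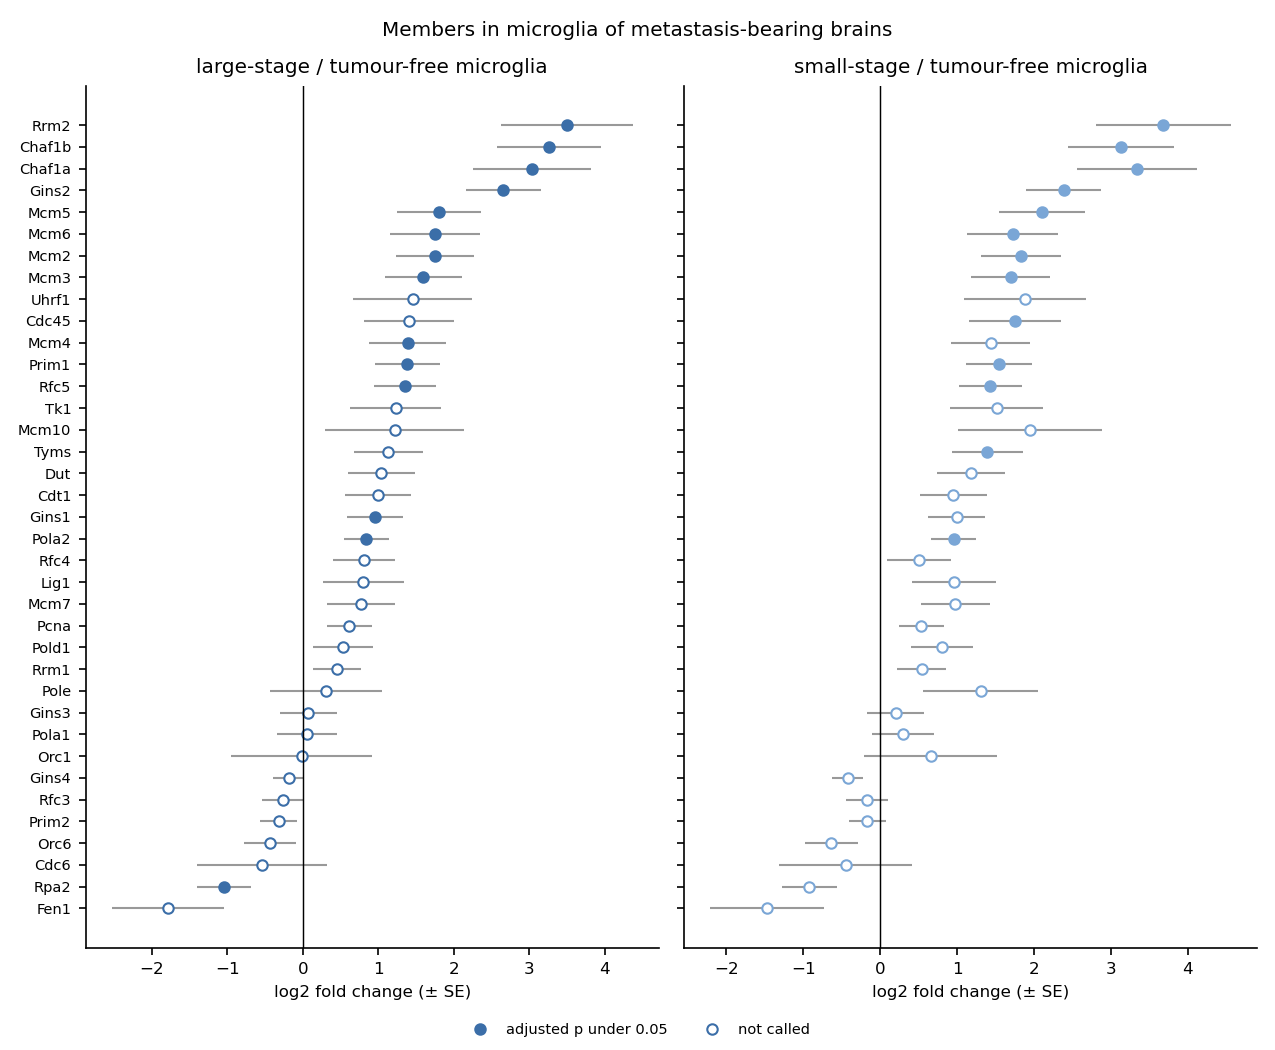
Log2 fold change with its SE of each gene in large-stage (left panel) and small-stage microglia (right panel) against tumour-free microglia. Genes are ordered by their log2 fold change in large-stage microglia. Filled points passed the adjusted p of 0.05, and Chaf1b, Chaf1a, Rrm2 and Gins2 lie farthest to the right in both panels.

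Genes of the neighbouring steps were counted in the same comparison. Of all genes tested, 11.7% were called higher in large-stage and 7.55% in small-stage microglia. The small-stage count among the other replication genes lay near that share and is not a result about those genes. Among 36 other replication genes, 7 rose and 0 fell in large-stage microglia and 3 rose and 0 fell in small-stage microglia, led by the fork-protection factor Timeless at 3.35 in large-stage and 3.70 ± 0.53 in small-stage microglia (adjusted p = 1.39e-05) and by the nuclease-helicase Dna2 at 2.50 ± 0.38 (adjusted p = 2.3e-05) and 2.35. Of 26 other nucleotide synthesis genes tested, 6 and 4 rose and 0 fell, including Mthfd2, a mitochondrial folate enzyme, at 1.39 and 1.64, and Impdh1, of guanine nucleotide synthesis. Of 22 E2F and S-phase entry genes, 6 and 4 rose and 0 fell, with E2f1 at 2.73 and 2.57, Ccne1, the cyclin of S-phase entry, at 3.44 and 3.46, and Cdkn1a, the cell cycle inhibitor p21, at 2.64 and 2.47. Of 22 mitosis genes, 12 and 13 rose and 0 fell, with medians of 2.12 and 2.55. Top2a rose by 3.22 in small-stage microglia, and Mki67 rose there by 2.31 ± 0.72 (adjusted p = 0.0286) and had 1.78 ± 0.71 in large-stage microglia (adjusted p = 0.0548).

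Markers of another cell type moved with this comparison. The 8 astrocyte markers, none of them at 0, summed to 158 to 353 CPM in large-stage and 127 to 354 CPM in small-stage microglia, against 896 to 1643 CPM in tumour-free microglia, and their part in the result was not tested. With another scaling (RLE) the median of all genes moved to -0.51 in large-stage and -0.21 in small-stage microglia and the calls split into 11 higher and 2 lower and into 10 higher and 2 lower. Without the doubtful libraries, which leaves 2 tumour-free ones, 5 genes were called in each stage, and Gins2 and Chaf1b were the 2 of them already called with all libraries. When only the groups compared entered the fit, 3 genes were called in each stage, and limma voom with sample weights called 1 in large-stage and 0 in small-stage microglia.

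Within brains that carried a tumour, the genes were compared between the large and the small stage. In microglia, BMDM and monocytes 0 of the 37 genes were called, as were 0% of all genes tested in each. At an unadjusted p under 0.05 there were 0 genes in microglia, 3 in BMDM (Rrm2, Pold1 and Rfc5, all with negative log2 fold changes) and 1 in monocytes (Pole). DESeq2 and limma voom also called 0 in each. Here and below, shares of all genes are at the adjusted p of 0.05. The share under the unadjusted threshold was not counted, so unadjusted counts have no share to be set against. In granulocytes, of which 35 genes passed the filter on low counts, 1 gene was called, Gins2, where 0.0141% of all genes tested were called. Gins2 had 1.70, 0.372, 0.180, 1.27 and 0.532 CPM in large-stage granulocytes, against 376, 2.33, 3.70 and 3.61 CPM in small-stage granulocytes. The value of 376 CPM belongs to small-stage library 1, in which only Gins2 and Rrm1 reached 3 counts. The log2 fold change was -7.33 ± 1.31 (adjusted p = 0.041) with it and -2.11 and not called without it.

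Microglia titled 5x2 from tumour-free brains were compared with the other tumour-free microglia. None of the 37 genes was called at day 3 or day 5 with edgeR, where 1.91% and 1.35% of all genes tested were called, while 10 and 7 had an unadjusted p under 0.05. DESeq2 called 9 lower at day 3, and 3 higher and 4 lower at day 5, and limma voom called 0 at both. The percentages are edgeR's and cannot be set against the DESeq2 counts. The deoxynucleotide enzyme Dut had 3.98, 8.81 and 9.38 CPM at day 3 and 14.3, 9.88 and 15.8 CPM at day 5, against 4.86, 5.31, 0.568 and 2.66 CPM in the other tumour-free microglia. Its day 5 libraries all lay above the other tumour-free libraries, with a log2 fold change of 1.76 ± 0.49 that missed the threshold (adjusted p = 0.0573). Gins2 had 6.31, 2.81 and 5.84 CPM at day 3 and 7.70, 6.41 and 5.41 CPM at day 5, against 2.37, 1.35, 0 and 3.19 CPM, so that 1 day 3 library overlapped the other tumour-free ones and no day 5 library did. At day 3, Mcm10 had 0.0613, 0.115 and 0.0621 CPM, against 0.623, 4.25, 2.84 and 0.177 CPM. All 3 day 3 libraries were below the others, and the log2 fold change of -4.65 ± 1.35 missed the threshold (adjusted p = 0.0584). Mki67 fell by 5.34 on the log2 scale at day 3 (adjusted p = 0.0236) and Cdkn1a rose by 3.01 ± 0.40 at day 3 and 3.57 at day 5. Without tumour-free library 1 the count at day 3 was 7 genes and without library 4 it was 6, and at day 5 the count was at most 3. Epithelial markers summed to 0.919 to 88.6 CPM at day 3 and 22.0 to 117.7 CPM at day 5, against 0.249 to 13.3 CPM in the other tumour-free microglia, and their part in these values was not tested.

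Cells of irradiated tumour brains were set against unirradiated cells of the same population, taking the mean of the large and the small stage. In microglia 0 of the 37 genes were called at any time with edgeR, DESeq2 or limma voom, where edgeR called 0.101% of all genes after 1 dose of 10 Gy and 0.0607%, 0.0354% and 0.00506% at day 3, day 5 and day 10 of 5 doses of 2 Gy. At an unadjusted p under 0.05 there were 0 genes after 1 dose of 10 Gy, 1 lower at day 3, 9 higher at day 5 and 7 higher at day 10. The direction of the values differed between the days. At day 3 the log2 fold changes of the 37 genes had a median of -0.21 and 4 were above 0, at day 5 the median was 0.60 and all 37 were above 0, and at day 10 the median was 0.70 and 36 were above 0. After 1 dose of 10 Gy, at day 3, the median was -0.20. All 4 medians are set against the same 10 unirradiated libraries, and over all genes tested the median was 0.01, -0.05 and -0.10 at the 3 times and -0.17 after 1 dose of 10 Gy.

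The reductase subunit Rrm2 had 1.18, 9.88, 8.78 and 15.9 CPM at day 3, 7.63, 41.1, 68.2 and 69.8 CPM at day 5 and 46.5, 64.1 and 78.6 CPM at day 10 of 5 doses of 2 Gy, set against the unirradiated values above. All day 10 libraries lay above all day 3 libraries, and 1 of the 4 day 5 libraries was low. Day 3 library 1, listed first, is among the doubtful libraries. After 1 dose of 10 Gy the 3 libraries were spread over 2.33, 23.4 and 37 CPM. Tyms had 8.52, 15.8, 19.3 and 25.7 CPM at day 3, 12.2, 31.5, 45.7 and 62.1 CPM at day 5 and 43.7, 56.6 and 50.5 CPM at day 10, again without overlap between day 3 and day 10. Between those days Rrm2 and Tyms had the smallest unadjusted p of the 37 genes with edgeR. Neither was called, so their lack of overlap is no separate result. The helicase subunit Mcm2 had 16.3, 48.2, 38.1 and 84.5 CPM at day 3, 41.4, 103, 125 and 118 CPM at day 5 and 82.6, 89.6 and 140 CPM at day 10, so that 1 day 3 library reached the day 10 range. Cdc6, which loads the helicase, had 0.947, 2.62, 3.39 and 10.2 CPM at day 3, 1.70, 12.4, 15.6 and 19.5 CPM at day 5 and 9.71, 13.6 and 24.6 CPM at day 10, with 1 day 3 library inside the day 10 range. Pcna did not order this way, with 43.7, 53.8, 60.9 and 131 CPM at day 3, 81.4, 79.8, 82.5 and 160 CPM at day 5 and 67.2, 73.5 and 66.3 CPM at day 10.

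Day 10 was then compared with day 3 of 5 doses of 2 Gy in microglia, a comparison added after the values were seen. With edgeR 0 of the 37 genes were called, as were 0% of all genes tested. At an unadjusted p under 0.05 there were 12 genes, all higher at day 10. How many of all genes passed that unadjusted threshold was not counted. DESeq2 called 0 and limma voom with sample weights called 2. Rrm2 had the log2 fold change 2.78 ± 0.85 (unadjusted p = 0.00265, adjusted p = 0.782), and the values of Tyms (1.48), Mcm7 (1.28), Dut (1.29), Chaf1a (1.72), Chaf1b (1.59) and Rrm1 (0.93) were also positive, as were those of 36 of the 37 genes. The median was 0.96, against -0.11 over all genes. All 22 mitosis genes had an unadjusted p under 0.05 in that comparison, with a median log2 fold change of 2.72. The same comparison gave 0 calls with edgeR, DESeq2 and limma voom in BMDM, granulocytes and monocytes, where 0% of all genes were called, and 0, 1 and 0 genes had an unadjusted p under 0.05.

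**Figure D4:**
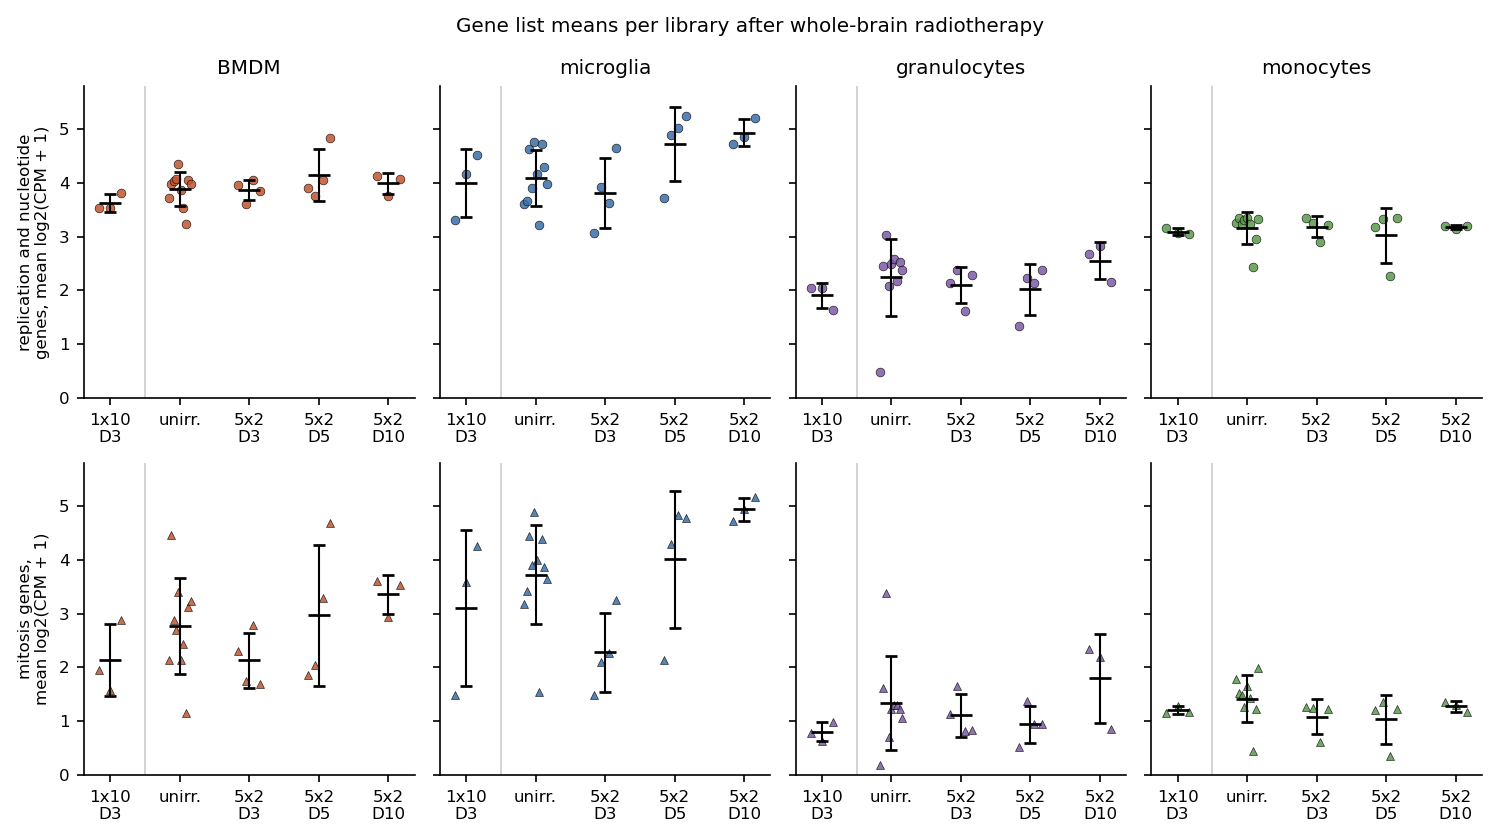
Mean over the 37 genes (top row) and over 22 mitosis genes (bottom row) of log2(CPM + 1) in each library (points) with the group mean and SD, for each population in a column, after 1 dose of 10 Gy, unirradiated and at days 3, 5 and 10 of 5 doses of 2 Gy. In microglia the replication mean lies between 3.07 and 4.64 at day 3 and between 4.72 and 5.21 at day 10, and the mitosis mean between 1.48 and 3.26 and between 4.73 and 5.16.

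The mean over the 22 mitosis genes in microglia was 1.48, 2.11, 2.26 and 3.26 at day 3, against 4, 1.55, 4.38, 3.87 and 3.64 in large-stage and 3.18, 3.42, 4.44, 3.91 and 4.88 in small-stage microglia without irradiation. The median log2 fold change of the 22 mitosis genes at day 3 was -1.80, and 19 of them had an unadjusted p under 0.05, although none was called. The mean over the 37 replication genes was 3.07, 3.92, 3.62 and 4.64 in the same 4 libraries. For both means, the mitosis and the replication one, all but the lowest lay within the range of the unirradiated libraries. The lowest in both was the doubtful library 1. Cdkn1a, which inhibits the cyclin-dependent kinases and binds Pcna, was called, with 1218 ± 151 CPM at day 3 of 5 doses of 2 Gy (SD, n = 4) and 1347 ± 142 CPM after 1 dose of 10 Gy (n = 3), against 419 ± 100 CPM in large-stage and 343 ± 128 CPM in small-stage microglia (n = 5 each). Its log2 fold changes were 1.69 ± 0.28 (adjusted p = 0.00293) and 1.72 (adjusted p = 0.00396).

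In BMDM, granulocytes and monocytes 0 of the genes were called after either schedule at any day with edgeR, where 0.0063% of all genes tested were called in BMDM after 1 dose of 10 Gy and 0% in each of the other comparisons. DESeq2 called 1 gene in granulocytes at day 5 and none elsewhere, and limma voom called 1 gene in BMDM and 6 in monocytes after 1 dose of 10 Gy and none elsewhere. The number with an unadjusted p under 0.05 was 0 to 3 per comparison in BMDM, 0 to 4 in granulocytes and 0 to 5 in monocytes. The 5 in monocytes were at day 5 and went both ways, with Mcm10 at 2.29 and Rrm1 at 0.54 and with Cdc6 at -1.63, Rrm2 at -1.31 and Tk1 at -0.92. Library 3 of that group stood apart, with a mean of 2.26 over the 37 genes against 3.17 to 3.35 in the other 3, and without it 0 genes were called as well. In BMDM, the GINS subunit Gins1 had 8.60, 10.6, 13.1 and 19.7 CPM at day 5 of 5 doses of 2 Gy, against 7.03, 6.59, 5.61, 6.41 and 13.3 CPM in large-stage and 4.51, 6.01, 5.38, 8.62 and 6.21 CPM in small-stage BMDM. The groups overlapped through 1 large-stage and 1 small-stage library. The log2 fold change was 0.87 ± 0.29 and was not called by edgeR (unadjusted p = 0.00694, adjusted p = 0.563). Rrm2 in BMDM had 3.60, 7.72 and 16.1 CPM after 1 dose of 10 Gy, and 6.29, 5.42, 14.4 and 3.33 CPM at day 3, 8.74, 4.68, 13.4 and 36.4 CPM at day 5 and 14.1, 12.5 and 10.2 CPM at day 10 of 5 doses of 2 Gy. These values lay within the range of the unirradiated BMDM, which were 11, 3.89, 2.62, 17.6 and 13.6 CPM in the large and 7.66, 51.1, 15.9, 18.9 and 27.0 CPM in the small stage.

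The difference in response between BMDM and microglia was tested by an interaction term. At day 3 of 5 doses of 2 Gy 0 of the 37 genes differed (0.00516% of all genes tested were called), with a median difference of 0.08 on the log2 scale and 0 genes at an unadjusted p under 0.05. At day 10 again 0 were called (0% of all genes), 4 had an unadjusted p under 0.05 and the median difference, BMDM minus microglia, was -0.83, with 1 of 37 values above 0 and a median of -0.04 over all genes. Those 4 were Mcm4 (-0.98), Gins3 (-1.15), Rrm1 (-0.89) and Rpa2 (-0.92). DESeq2 and limma voom called 0 in both interactions.

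The populations of unirradiated tumour brains were compared with each other. Against microglia, BMDM differed in few of the genes. In BMDM 2 genes were higher, Gins3 and Gins4, and 3 were lower, Gins1, Mcm3 and Mcm2, where 29.9% of all genes tested were called, 16.1% higher and 13.8% lower. Gins3 had 34.6, 29.8, 13.6, 20.1 and 7.41 CPM in large-stage BMDM and 41.0, 23.7, 21.3, 13.1 and 21.3 CPM in small-stage BMDM, against 5.10, 7.08, 6.12, 5.47 and 6.93 CPM in large-stage and 5.92, 6.16, 6.51, 4.33 and 7.99 CPM in small-stage microglia. All but 1 BMDM library lay above all microglia libraries, and the log2 fold change was 1.87 ± 0.26 (adjusted p = 1.36e-05). Gins1, of the same complex, fell by 0.80 on the log2 scale (adjusted p = 0.0105), with 7.03, 6.59, 5.61, 6.41 and 13.3 CPM in large-stage and 4.51, 6.01, 5.38, 8.62 and 6.21 CPM in small-stage BMDM, against 14.6, 9.86, 15.7, 8.77 and 12.4 CPM in large-stage and 8.39, 6.29, 21.1, 8.39 and 14.3 CPM in small-stage microglia. The Gins1 values of the 2 populations overlapped. Gins4 had 0.43 ± 0.12 (adjusted p = 0.0129), Mcm3 -0.86 ± 0.27 (adjusted p = 0.0192) and Mcm2 -0.82 ± 0.31 (adjusted p = 0.0494). Without the doubtful libraries Gins3, Gins1 and Mcm3 were called. The 7 conventional dendritic cell markers summed to 356 to 3223 CPM in BMDM, against 13 to 62.5 CPM in microglia, and the epithelial markers to 34.4 to 98.1 CPM in BMDM, against 0.346 to 10.8 CPM in microglia, and their part in the result was not tested.

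Against inflammatory monocytes of tumour brains, from which such macrophages can arise, BMDM had higher levels of Tyms, Rrm2, Tk1 and Dut of deoxynucleotide supply, of the helicase subunits Mcm5 and Mcm6 and of Uhrf1. The other MCM genes, Cdc45, the GINS genes, Rrm1, Chaf1a and Chaf1b were not called. In BMDM 12 genes were higher and 0 lower, where 13.8% of all genes tested were called, 7.22% higher. The median log2 fold change of the 37 genes was 0.82 and 34 were above 0, against 0.04 over all genes. Tyms, which makes thymidylate, had 14.1, 17.2, 9.81, 20.4 and 16.4 CPM in large-stage and 12.9, 37.9, 13.9, 9.70 and 34.9 CPM in small-stage BMDM, against 5.60, 5.01, 0.808, 4.39 and 4.33 CPM in large-stage and 5.01, 3.81, 7.67 and 4.23 CPM in small-stage monocytes. The groups did not overlap, and the log2 fold change was 2.07 ± 0.35 (adjusted p = 0.000498). Mcm5 had 23.2, 16.9, 13.3, 47.5 and 43.2 CPM in large-stage and 23.3, 83.7, 30.6, 48.6 and 70.0 CPM in small-stage BMDM, against 11.9, 11, 1.80, 13.9 and 17.4 CPM in large-stage and 9.65, 13.4, 9.76 and 13.6 CPM in small-stage monocytes. The lowest 2 BMDM libraries, both large-stage, overlapped the monocytes, with a log2 fold change of 1.79 ± 0.35 (adjusted p = 0.00162). Mcm6 rose by 1.73 ± 0.35 (adjusted p = 0.00245), Uhrf1 by 2.70 ± 0.58 (adjusted p = 0.00388), Tk1 by 0.97 ± 0.21 (adjusted p = 0.0041) and Rrm2 by 2.01 ± 0.47 (adjusted p = 0.00681).

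Uhrf1 had 1.63, 9.83, 4.39, 12.5 and 11.3 CPM in large-stage and 3.38, 3.82, 15.2, 23.9 and 6.56 CPM in small-stage BMDM, against 1.71, 0.605, 0, 2.19 and 1.52 CPM in large-stage and 1.46, 2.36, 2 and 1.32 CPM in small-stage monocytes. Only the lowest BMDM library lay within the monocyte range. The other 6 called genes were Dut, Prim1, Pole, Rpa2, Pola1 and the ligase Lig1, with log2 fold changes between 0.82 and 3.30 and adjusted p between 0.0209 and 0.0448. Tyms, Mcm5, Mcm6, Uhrf1, Tk1 and Rrm2 were called under every alternative run for this comparison. Of the mitosis genes 11 rose and 0 fell, of the other replication genes 6 rose and 0 fell, of the other nucleotide synthesis genes 3 rose and 3 fell, and of the E2F and S-phase entry genes 4 rose, led by the cyclin Ccnd2 at 3.13, and 1 fell, Cdkn1a. Over all genes tested, 7.22% were called higher and 6.59% lower. With the replicate number as a block 7 of the 37 genes were called. Without the doubtful libraries 10 were called, 9 of them among the 12, with Pola1, Pole and Lig1 no longer called. The conventional dendritic cell markers, none at 0, summed to 356 to 3223 CPM in BMDM, against 40.0 to 282 CPM in monocytes, and the 6 epithelial markers to 34.4 to 98.1 CPM in BMDM, with Krt8 and Cldn4 at 0 in the small stage, against 5.48 to 62.6 CPM in monocytes, with Cldn4 at 0. Their part in the result was not tested.

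Granulocytes had lower levels than monocytes of tumour brains of Rfc3 and Rfc4 of the clamp loader, Pola2, Orc6, Dut, Rrm1, Tk1, Gins1, Chaf1a, Mcm3 and Mcm6. Rfc5, Pola1, Orc1, Cdc6, Cdt1 and Rrm2 were not called. Of 36 genes that passed the filter on low counts, 11 were lower and 2 higher in granulocytes, where 49.9% of all genes tested were called, 26.9% lower and 23% higher, so that the share of genes called among the 36 was below that among all genes and is not a result about these genes. Without the doubtful libraries 12 genes were lower and 4 higher, among them 12 of the 13, with Mcm6 no longer called. The clamp loader subunit Rfc3 had 5.96, 3.23, 1.44, 3.09 and 1.42 CPM in large-stage and 0, 1.75, 2.55 and 0 CPM in small-stage granulocytes, against 13.9, 16.8, 7.72, 9.64 and 15.9 CPM in large-stage and 23.3, 21.1, 19.3 and 23.3 CPM in small-stage monocytes. The groups did not overlap, and Rfc3 fell by 2.89 on the log2 scale (SE 0.57, adjusted p = 0.00026). Its partner Rfc4 had 2.41, 0.868, 0.361, 1.45 and 0.709 CPM in large-stage and 0.532, 2.92, 4.46 and 0.374 CPM in small-stage granulocytes, against 11.8, 10.4, 6.56, 6.30 and 12.9 CPM in large-stage and 12, 8.62, 10.6 and 9.01 CPM in small-stage monocytes, and fell by 2.39 (SE 0.52, adjusted p = 0.000628) without overlap. Dut fell by 2.76 (adjusted p = 0.00184), Pola2 by 2.15 (adjusted p = 0.00237) and the origin subunit Orc6 by 1.79 (adjusted p = 0.0058).

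The exceptions were Mcm10 and Chaf1b. Mcm10, which helps to start the helicase, had 9.78, 14, 8.85, 2.91 and 7.62 CPM in large-stage and 0, 17.0, 5.23 and 18.7 CPM in small-stage granulocytes, against 1.42, 0.691, 0, 0.382 and 2.20 CPM in large-stage and 0.729, 0, 1.17 and 5.27 CPM in small-stage monocytes. Apart from the doubtful small-stage granulocyte library 1, the granulocytes lay mostly above the monocytes, and the log2 fold change was 3.11 ± 0.82 (adjusted p = 0.00333). Chaf1b rose by 1.51 ± 0.57 (adjusted p = 0.0299). Of the neighbouring lists, 0 of the other replication genes rose and 16 fell, 4 nucleotide synthesis genes rose, among them Rrm2b (1.35), the ribonucleotide reductase subunit made outside S phase, and 14 fell, and 1 mitosis gene, Mki67 (1.53), rose and 2 fell. Over all genes tested, 23% were called higher and 26.9% lower. Markers of neutrophil precursors summed to 139 to 2463 CPM in large-stage and to 10180, 1014, 4260 and 188 CPM in small-stage granulocytes, and their part in these values was not tested.

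Monocytes of tumour brains had lower levels of 12 of the genes than blood monocytes of tumour-free mice, and higher levels of 0, where 26.3% of all genes tested were called, 15.7% lower. The median log2 fold change was -0.75, against -0.16 over all genes. Rpa2 had 14.8, 15.6, 29.7, 16.8 and 12.3 CPM in large-stage and 18.1, 9.53, 13.4 and 15.5 CPM in small-stage tumour monocytes, against 52.2, 34.5, 55.1 and 33 CPM in blood monocytes. The groups did not overlap, and Rpa2 fell by 1.89 on the log2 scale (SE 0.28, adjusted p = 0.000473). Uhrf1 had 1.71, 0.605, 0, 2.19 and 1.52 CPM in large-stage and 1.46, 2.36, 2 and 1.32 CPM in small-stage tumour monocytes, against 11.3, 32.7, 6.70 and 3.79 CPM in blood monocytes, and fell by 3.86 (SE 0.77, adjusted p = 0.00329) without overlap. Pole had 0.475, 0, 0, 0.191 and 0 CPM in large-stage and 0.820, 3.27, 1.08 and 0 CPM in small-stage tumour monocytes, against 14.4, 50.2, 19.1 and 0.564 CPM in blood monocytes, where library 4 lay among the tumour monocytes. Pole fell by 6.29 (SE 1.11, adjusted p = 0.00155), Tyms by 2.19 (adjusted p = 0.00691), Pola1 by 2.66 (adjusted p = 0.0118) and Mcm10 by 3.43 (adjusted p = 0.0221).

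Blood monocyte libraries 1, 2 and 3 are among the doubtful ones. Without the doubtful libraries 1 blood library remained, 0 genes were called, and the log2 fold changes of Tk1 and Prim2, which were called lower with all libraries, became 0.27 and 0.02. With a replicate block 5 genes were called, without blood library 2 there were 5 and without library 3 there were 7. In blood libraries 1 to 4, 8 T and NK cell markers, none at 0, summed to 3456, 540.3, 1475 and 143 CPM and erythroid markers to 6984, 2654, 5042 and 1155 CPM, and the part of those cells in the result was not tested. Of the mitosis genes 0 rose and 10 fell, of the E2F and S-phase entry genes 2 rose, among them Cdkn1a (1.18), and 5 fell, of the other replication genes 1 rose and 3 fell, and of the other nucleotide synthesis genes 1 rose and 2 fell. Over all genes tested, 10.6% were called higher and 15.7% lower.

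**Figure D5:**
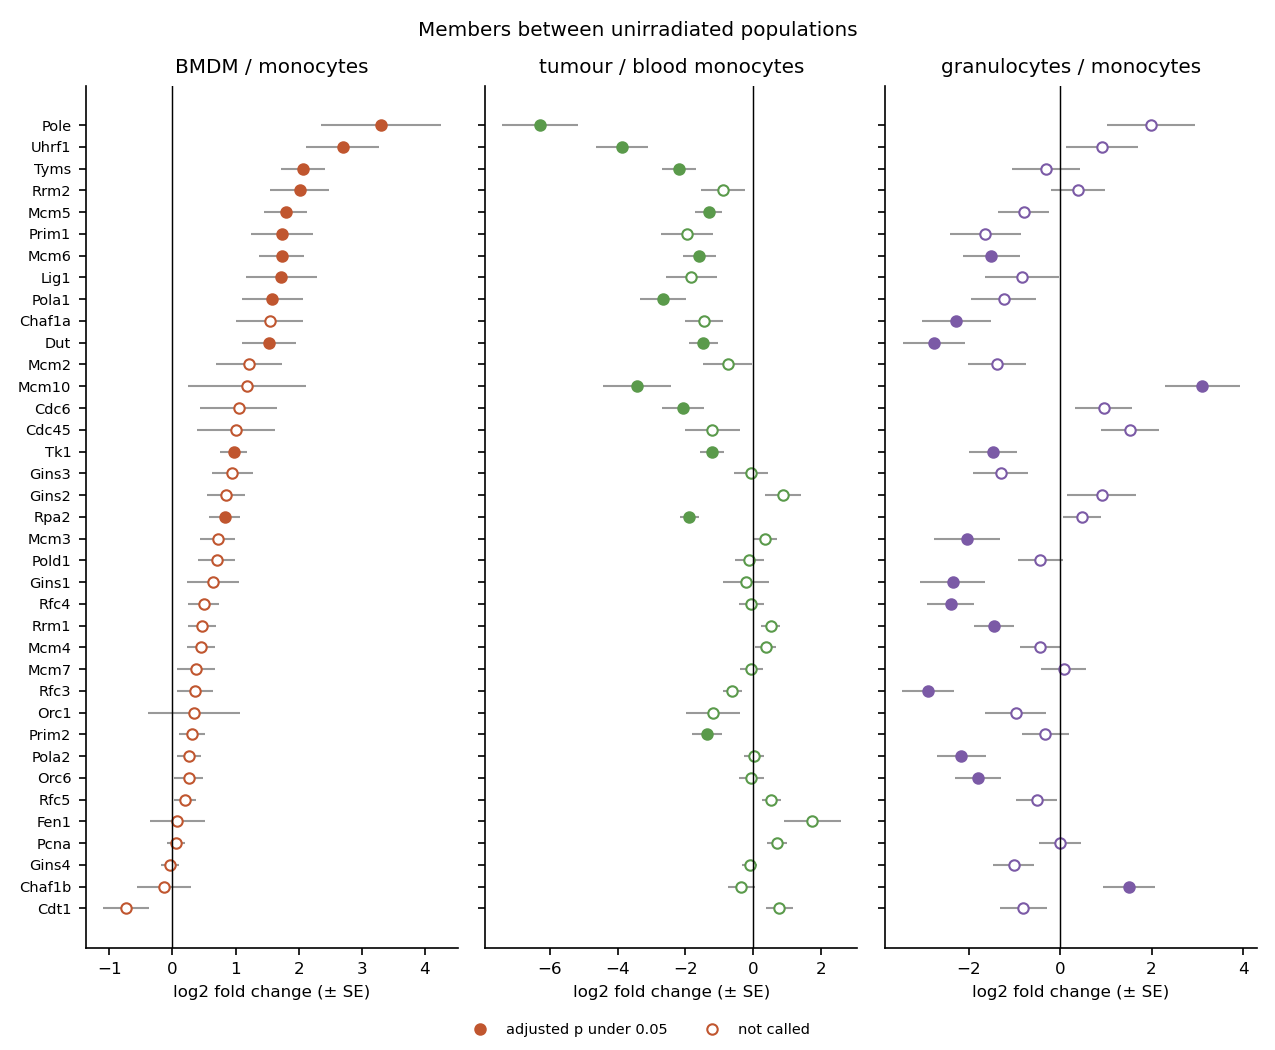
Log2 fold change with its SE of each gene in BMDM against monocytes, tumour monocytes against blood monocytes and granulocytes against monocytes. Genes are ordered by their log2 fold change in BMDM against monocytes, with filled points past the adjusted p of 0.05. Tyms and Uhrf1 lie right of 0 in the first panel and left of 0 in the second, and Rfc3, Rfc4 and Dut lie left of 0 in the third.

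Over the 34 comparisons, Mcm6 was called in 5, Mcm3 and Mcm5 in 4, 12 genes in 3, 5 genes in 2 and 11 genes in 1. Mcm7, Pcna, Cdt1, Orc1, Pold1 and Fen1 were called in none. Mcm6, whose promoter is printed above, had 61.4, 22.8, 98.0, 81.0 and 33.8 CPM in large-stage and 26.1, 41.0, 87.1, 42.9 and 72.5 CPM in small-stage microglia, against 24.0, 4.73, 18.2 and 18.6 CPM in tumour-free microglia, with only large-stage library 2 inside the tumour-free range. Its level in BMDM was 28.2, 28, 42.2, 39.2 and 28.9 CPM in the large and 22.2, 80.7, 39.3, 69.5 and 64.4 CPM in the small stage, against 17.4, 16.2, 7.37, 3.15 and 8.58 CPM in large-stage and 10.3, 15.2, 5.75 and 36.7 CPM in small-stage monocytes. One small-stage monocyte library lay within the BMDM range. In microglia after 5 doses of 2 Gy, Mcm6 had 29.5, 58.2, 25.2 and 106 CPM at day 3, 36.6, 162, 141 and 134 CPM at day 5 and 75.4, 89.7 and 179 CPM at day 10, and 14.7, 46.4 and 81.2 CPM after 1 dose of 10 Gy.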

How the data were processed

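Per the labels' protocols, cells were sorted by flow cytometry, total RNA was extracted with Trizol LS and Illumina libraries were prepared. The authors deposited raw counts per gene and library, which were used as deposited. TopHat2 2.0.14, HTSeq, FastQC and DESeq2 1.18.1 are listed in the submitters' processing notes with the build GRCm38, without their roles. Whether counting used the strand, and with which annotation, is not given in the sources used here, so overlapping genes cannot be separated. All 37 genes matched GENCODE M21.

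Groups follow the labels' cell type, stage, radiotherapy field and title. Each population was fitted together with edgeR 4.0.16 (filterByExpr with a minimum count of 10 and a minimum total of 15, TMM scaling, quasi-likelihood F-test, 1 mean per group, no covariate), in R 4.3.3. Population contrasts were fitted on only the unirradiated groups they name. P-values were adjusted by Benjamini-Hochberg over all genes tested in a comparison (threshold 0.05), not across the 34 comparisons. SE come from the same fits, and printed CPM use TMM factors over all libraries. The script was tested on simulated data. Alternatives were RLE scaling, DESeq2 1.42.0, limma voom (3.58.1), no filter, a fit of the compared groups alone, a replicate block and leaving out libraries.

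Members and lists were chosen with earlier results of these data known. Full statistics went to at most 6 called genes with the smallest adjusted p per comparison. The other genes were given by counts, ranges or brief values. In large-stage microglia, Mcm5 and Prim1, among those 6 in small-stage microglia, took the place of Mcm2 and Rfc5. At most 3 called genes were named per neighbouring list, plus Mki67, Top2a, Cdkn1a, Rrm2b and E2f1. Mcm6, Gins1, Pcna and Rrm1 were described beyond this rule after their values were seen. Rrm2, Tyms, Mcm2 and Cdc6 in irradiated microglia were described although they were not called there.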

Additional observations from a re-analysis of the deposited data

Results flagged for a closer look

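In monocytes at day 5 of 5 doses of 2 Gy, library 3 stood apart from the other 3 libraries. Its mean over the 37 genes of log2(CPM + 1) was 2.26, against 3.17 to 3.35 in the others, and the gap to the nearest library took a share of 0.841 of the group's range. Of 18 groups of 4 or 5 libraries checked in this way, it was the only one, and chance sets apart about 5% of such groups. The effects of radiotherapy on this mean were also checked in 24 pairs of populations, and in none did every library of one population move one way and every library of the other the opposite way.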

How the results depend on the processing

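The count of called genes changed with the setting mainly where tumour-free or blood libraries serve as the control. The cause was not tested. The counts below are given without the share of all genes called under the same setting. For small-stage against tumour-free microglia (13 called), the fit of the compared groups alone gave 3, limma voom 0 and the fit without doubtful libraries 5. For large-stage microglia (14 called) these settings gave 3, 1 and 5. For tumour against blood monocytes (12 called), voom gave 21, the replicate block 5 and the fit without doubtful libraries 0, where Tk1 (0.27) and Prim2 (0.02) turned positive. Granulocytes against monocytes (13 called) gave 21 with voom, BMDM against microglia (5 called) gave 3 without doubtful libraries, and BMDM against monocytes (12 called) gave 7 with the replicate block. The single call in large against small granulocytes became 0 with DESeq2, the groups alone, voom, the block and without doubtful libraries. Where no gene was called, voom gave 1 in BMDM and 6 in monocytes after 1 dose of 10 Gy and 2 in microglia at day 10 against day 3, and DESeq2 gave 1 in granulocytes at day 5. The titled 5x2 microglia gave 9 with DESeq2, 3 with RLE and 2 without a filter at day 3, and 7 with DESeq2 and 1 without a filter at day 5. Leaving out 1 library at a time gave 7 to 15 for small-stage microglia (lowest without small-stage library 5), 9 to 15 for large-stage microglia (lowest without large-stage library 3), 5 to 16 for tumour against blood monocytes, 3 to 6 for BMDM against microglia, 8 to 13 for BMDM against monocytes, 11 to 16 for granulocytes against monocytes, 0 to 1 for large against small granulocytes, 0 to 7 and 0 to 3 for microglia titled 5x2 at day 3 and day 5, and 0 elsewhere. Deviations of same-numbered libraries correlated above 0.1 in 4 of 10 pairs of BMDM and microglia. The same held in 4 of 9 pairs of BMDM and monocytes (lowest 0.003, median 0.065) and in 3 of 9 pairs of granulocytes and monocytes. It held in 2 of 8 pairs of tumour and blood monocytes. Libraries across replicate numbers were not correlated for reference, so these values cannot show whether replicate numbers pair libraries. The replicate block gave 9 and 11 genes for small-stage and large-stage microglia, 5 for BMDM against microglia and 11 for granulocytes against monocytes. Of 70 calls of single genes, 68 were kept with DESeq2, 64 with RLE, 59 without a filter, 48 with the groups alone, 41 with voom and 28 without doubtful libraries. RLE scaling moved 6 of 28 group means of the 37 genes by more than 1 SD. Among these were the control groups of tumour-free microglia (2.92 to 3.37) and blood monocytes (3.53 to 4.13).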
